A study of Danio rerio with 28 samples.

Results

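The glycolysis and glucose transport genes comprised 37 symbols, among them hexose transporters, the enzymes from hexokinase to lactate dehydrogenase, the enzymes that set fructose 2,6-bisphosphate, and a lactate exporter. They were found by matching each symbol to the zebrafish gene names of the count table, ignoring case and also without the final paralog letter. This gave 37 gene IDs of 32520 in the table, from 36 of the 37 symbols, since pgk1 was not matched. Of these IDs, 22 carry a name that several IDs share, so their a and b copies cannot be assigned here and each is printed with its ID. In the injection experiment 26 of the 37 passed the filter on low counts and were tested, and in the untreated fish 21 were.

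RNA was sequenced from mpeg1+ cells sorted out of whole adult zebrafish brains, 100 cells per library, in 28 libraries. All fish were TgBAC(ccl34b.1:eGFP);Tg(mpeg1:DsRedx), so a chemokine promoter drove green and a macrophage promoter drove red fluorescence. Each fish gave 1 ccl34b.1+ and 1 ccl34b.1- library, although the labels do not say that equal library numbers mark a fish, and the labels call the cells of both gates microglia, the resident macrophages of the brain. Untreated fish (n = 5) were 4 months old; the injection experiment used fish of 6 months, of which 2 were controls, 4 were given PBS as the vehicle and 3 were given E. coli. The labels used here give no dose, injection site or time after injection. Of the 3 technical replicates sorted for each gate, the replicate sequenced was picked for the quality of its cDNA.

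Glycolysis breaks glucose down to pyruvate in the cytosol and yields ATP without oxygen. Glucose enters through carriers of the SLC2A family, hexokinase traps it, phosphofructokinase commits it to the pathway, and lactate dehydrogenase regenerates the NAD+ that the middle of the pathway consumes. Mammalian macrophages and microglia are known to take up more glucose and release more lactate when they meet bacterial products.

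Depth was 14.24 to 30.37 M counts per library in untreated fish and 2.24 to 9.69 M in the injection experiment. Levels are CPM, the usual normalised read count, on TMM-scaled library totals computed within each experiment, so levels of the experiments are set side by side and not tested. CPM is not divided by gene length, so levels of different genes cannot be compared. A sorted pool also cannot separate fewer cells carrying a transcript from less of it per cell. The microglia marker list summed to 49900 to 74000 CPM in ccl34b.1+ libraries after PBS, to 5350 to 9190 after E. coli, and to 467 to 1580 in ccl34b.1- libraries of those fish. That list includes ccl34b.1, the gene whose reporter set the gates, so part of the gate difference follows from the sort. In ccl34b.1+ PBS libraries apoeb averaged 33000 CPM, lgals3bp.1 13840, apoc1 6775 and ccl34b.1 4934. After E. coli ccl34b.1 averaged 924 CPM in that gate, with every library below the PBS libraries. This difference did not pass (log2 fold change -2.42 ± 0.65, SE, adjusted p = 0.0855). MPEG1 (ENSDARG00000055290), named as the gene whose promoter drives the red reporter, was lower after E. coli in the ccl34b.1+ gate (log2 fold change -2.64 ± 0.48, SE; adjusted p = 0.00101). In the ccl34b.1- gate, dendritic cell markers summed to 9730 to 20300 CPM after PBS or E. coli, against 339 to 678 in ccl34b.1+ libraries. Most of this came from ccl19a.1, siglec15l and ID2, at means of 6159, 3226 and 2748 CPM in ccl34b.1- PBS libraries, where flt3 averaged 174. The neutrophil list summed to 13.2, 1850 and 2370 CPM in ccl34b.1- E. coli libraries 1, 2 and 3 and to 2.48 to 20.7 after PBS in that gate. MMP9 and mmp13a made up nearly all of this, and lyz, a defining neutrophil gene, had 0 counts in all 18 libraries of the injection experiment. Of the 9 neutrophil symbols listed, mpx, cpa5 and cxcr2 were not matched and could not be read. In that gate npsn had counts after E. coli and none after PBS. All 4 neutrophil genes tested had log2 fold changes above 0 for E. coli against PBS there, and 1 passed.

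In ccl34b.1+ cells, E. coli injection was compared with PBS to ask how transcripts of the pathway stood after a bacterial challenge. SLC2A6, a hexose transporter, was 24.8-fold higher and HK2, the inducible hexokinase, 5.03-fold higher, while LDHB, the lactate dehydrogenase subunit known for turning lactate back to pyruvate, was 8.07-fold lower. These were 3 calls among 26 members tested, against a background of 1.51% of 12421 genes (0.700% higher and 0.813% lower), with edgeR's quasi-likelihood test and Benjamini-Hochberg adjustment. All 3 E. coli libraries lay above all 4 PBS libraries for 9 members and below them for 2, where the shares over all genes were 6.10% and 6.93%. The median log2 fold change of the 26 members was 0.54 (0.56 without the member at 0 in both groups), with 20 values above 0 and 5 below, and over all genes it was -0.18. The SE of a member's log2 fold change was 0.312 to 3.15 with a median of 0.692, so a member that missed the threshold is not shown to be unchanged.

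Summed over all 37 IDs, the level was 6084, 7447, 4704 and 6912 CPM in ccl34b.1+ libraries after PBS and 12140, 13840 and 15180 CPM after E. coli. Without SLC2A6 the E. coli libraries summed to 9355, 11670 and 11700 CPM, still above the PBS range of 4552 to 7340. In ccl34b.1- cells the sums were 4072, 5722, 4507 and 5054 CPM after PBS and 4395, 9725 and 7144 CPM after E. coli. There library 1 lay within the PBS range and libraries 2 and 3 above it. GAPDHS alone averaged 2292 of the mean sum of 4839 CPM in ccl34b.1- PBS libraries. In E. coli library 1 of that gate GAPDHS was at 1375 CPM, below every PBS library. Sums without GAPDHS were not computed, so the place of library 1 is not shown for the other IDs. When IDs were summed by enzyme, 9 of 13 steps had E. coli libraries entirely above PBS libraries in the ccl34b.1+ gate and 3 of 13, namely hexokinase, aldolase and phosphoglycerate mutase, in the ccl34b.1- gate. In the ccl34b.1+ gate the gap was narrow for the fructose 2,6-bisphosphate enzymes, at 707 against 680 CPM, with controls higher, at 1297 and 1124. It was also narrow for lactate dehydrogenase, at 790 against 766 CPM, which sums LDHA and LDHB. The share of such gaps among sums of other genes was not computed. No p-value is given for sums, which rest on members chosen with earlier results known.

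**Figure D1:**
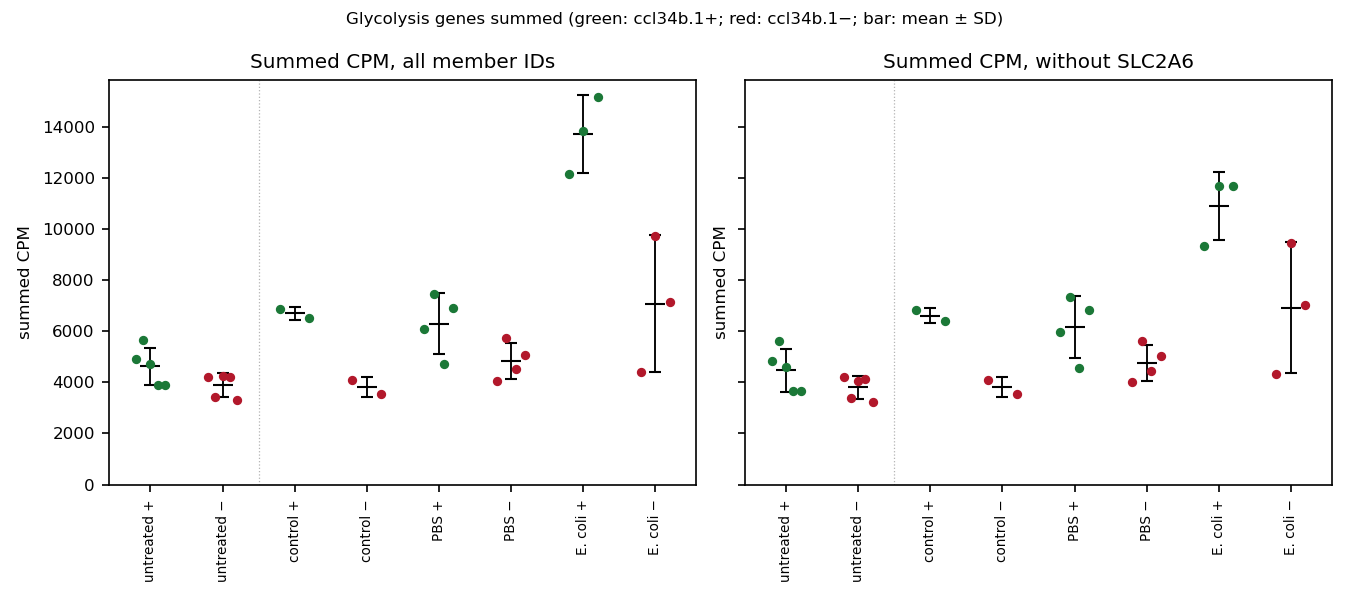
Summed CPM of all 37 glycolysis IDs (left) and without SLC2A6 (right) for each library, in the 8 groups on the x axis, with mean ± SD as bars; green points are ccl34b.1+ and red points ccl34b.1- libraries, and the dotted line parts untreated from injected and control fish. The 3 ccl34b.1+ E. coli libraries, at 12140 to 15180 CPM with all IDs, are above every other library drawn, and this holds without SLC2A6 with the exception that the lowest of them, at 9355 CPM, is below the highest ccl34b.1- E. coli library at 9444.

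Of the hexose transporters, SLC2A6, in mammals a lysosomal member of the glucose transporter family, was the member called. In ccl34b.1+ cells it stood at 126, 107, 153 and 68.6 CPM after PBS and at 2786, 2169 and 3480 CPM after E. coli. The groups were far apart, and the lowest E. coli library was above every other library of the injection experiment. The log2 fold change was 4.63 ± 0.59 (SE, n = 3 and 4; adjusted p = 6.79e-06), and it passed with each of the 7 libraries left out. Controls held 49.7 and 134 CPM, and untreated ccl34b.1+ libraries held 77.5, 46.4, 141, 254 and 262 CPM. In ccl34b.1- cells the values were 51.2, 93.7, 79.2 and 22.1 CPM after PBS and 60.4, 282 and 128 CPM after E. coli. These overlapped in library 1, and the difference of 1.35 ± 0.53 did not pass (adjusted p = 0.235). Against the 2 control libraries of that gate, at 23.0 and 3.65 CPM, the log2 fold change of E. coli was 3.56 (adjusted p = 0.0266), and against PBS none of 7 fits with a library left out passed (0.205 to 0.56).

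The classical basal glucose carrier of glia and endothelium, SLC2A1, was present as ENSDARG00000007412 at 16.3, 42.0, 58.2 and 30.9 CPM in ccl34b.1+ PBS libraries and 32.4, 9.84 and 62.7 CPM in E. coli libraries. These ranges overlapped (log2 fold change -0.07 ± 1.24, adjusted p = 1). Its other ID, ENSDARG00000001437, held 1 count in all libraries together, and slc2a3a held 449 counts in 4 libraries, too few to test.

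Of the hexokinases, which phosphorylate glucose on entry, HK2 was the member that moved in both gates. In ccl34b.1+ cells it was at 109, 198, 206 and 221 CPM after PBS and 701, 1121 and 947 CPM after E. coli, with no overlap (log2 fold change 2.33 ± 0.57, adjusted p = 0.0226). In the ccl34b.1- gate it was at 24.8, 76.0, 6.14 and 21.6 CPM after PBS and 172, 351 and 201 CPM after E. coli, again with no overlap (2.91 ± 0.58, 7.50-fold, adjusted p = 0.0122). The difference between these effects was -0.58 ± 0.79 (adjusted p = 0.893), so a gate-specific size was not detectable at this number of fish. In the ccl34b.1+ gate the adjusted p was 0.0352 without E. coli library 1 and between 0.0541 and 0.147 when any of the other 6 libraries was left out, with a range of 0.000139 to 0.147 over 15 alternatives. In the ccl34b.1- gate the adjusted p was 0.0646 without PBS library 1 and 0.0599 without E. coli library 2, and 0.332 when only the compared groups were fitted, a range of 0.000598 to 0.332 over 15 alternatives. HK1, the constitutive hexokinase, was at 40.1 to 146 CPM after PBS and 113 to 144 CPM after E. coli in ccl34b.1+ cells, which overlapped. In ccl34b.1- cells its E. coli libraries, at 87.0, 63.0 and 49.3 CPM, were all above PBS libraries, at 36.8, 18.2, 9.37 and 6.10 CPM, without a call (1.92 ± 0.85, adjusted p = 0.237).

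**Figure D2:**
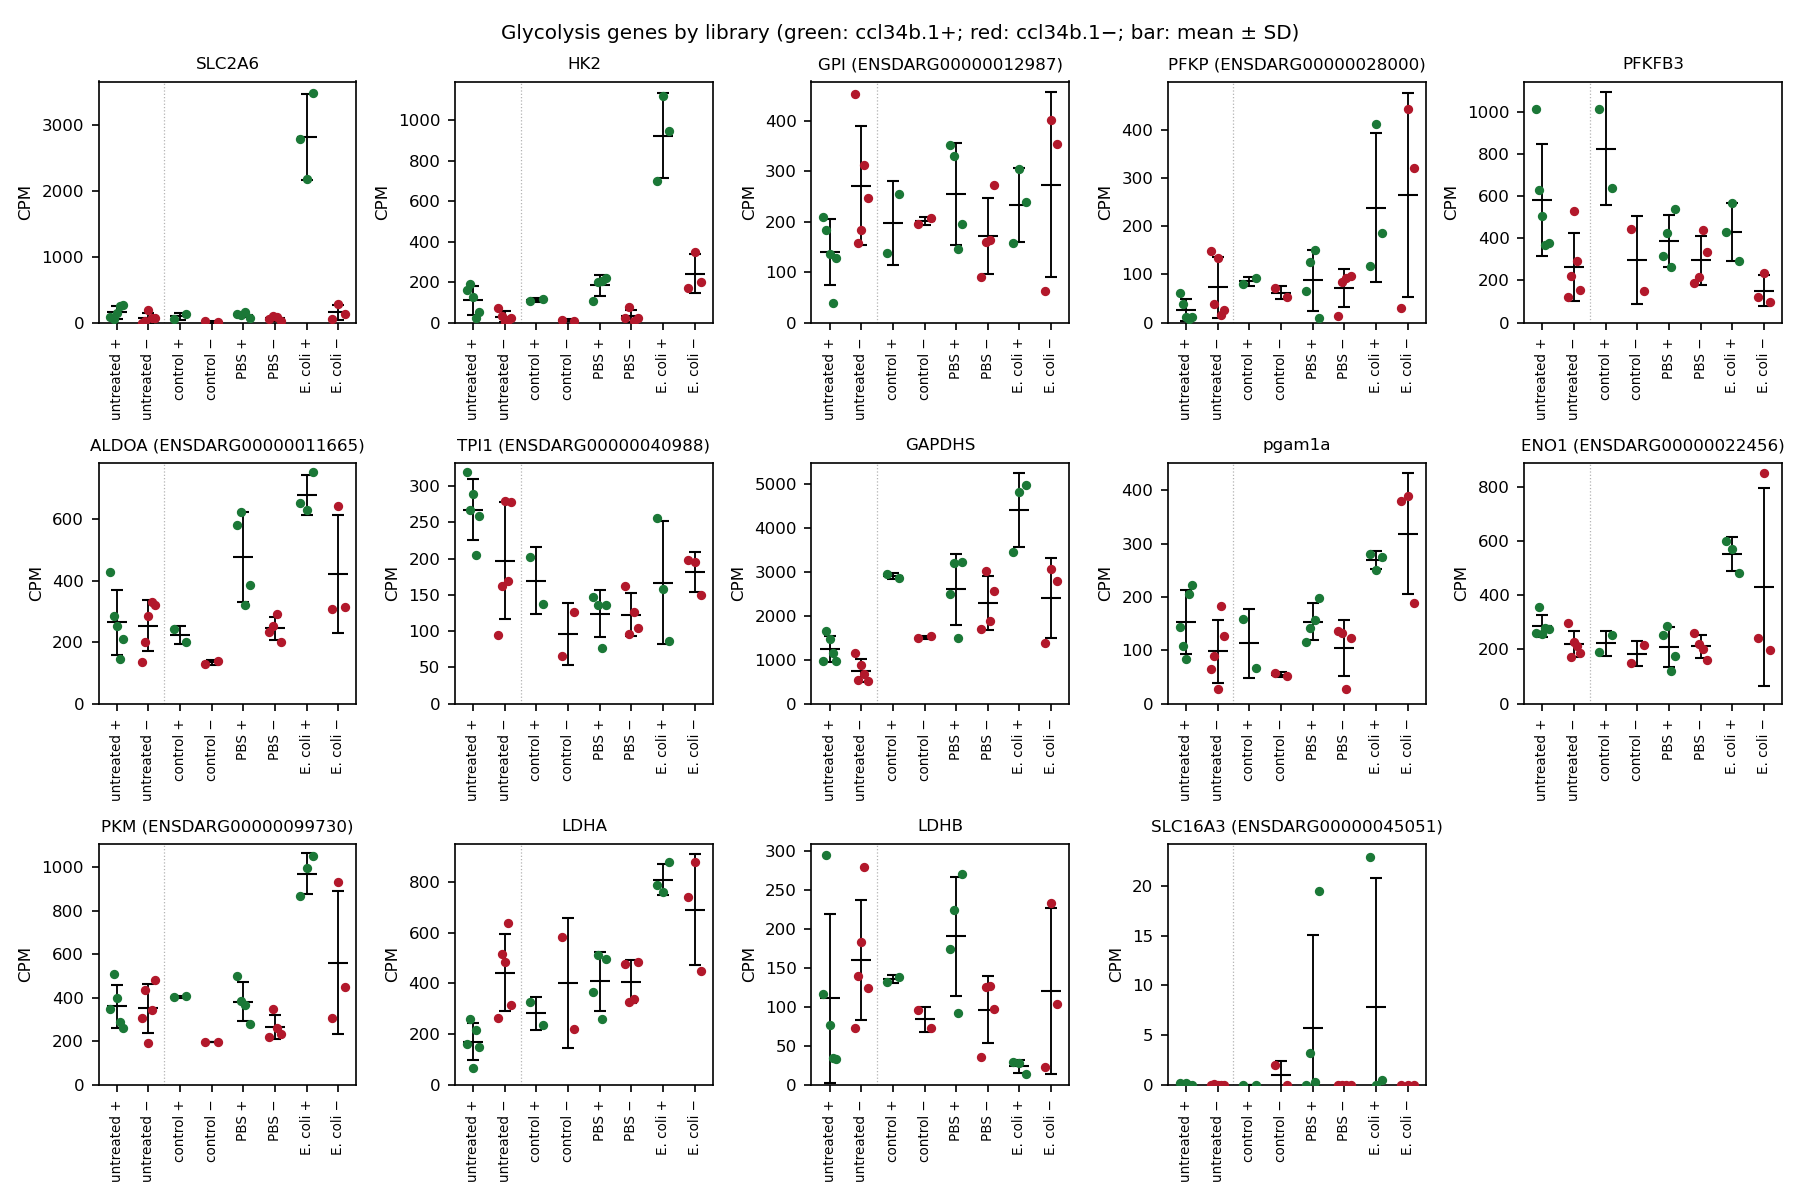
CPM of 14 glycolysis members in each library (y axis, linear from 0) for the 8 groups on the x axis, with mean ± SD as bars; green points are ccl34b.1+ and red points ccl34b.1- libraries, and the dotted line parts untreated fish from the injection experiment. SLC2A6 and HK2 stand highest in ccl34b.1+ E. coli libraries, at 2169 to 3480 and 701 to 1121 CPM, and LDHB has its lowest group mean there, with libraries at 13.8 to 28.9 CPM.

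The next steps, from glucose 6-phosphate to fructose 1,6-bisphosphate, did not pass in either gate. GPI (ENSDARG00000012987), which makes fructose 6-phosphate, stood at 352, 330.4, 145 and 196 CPM after PBS and 158, 304 and 239.7 CPM after E. coli in ccl34b.1+ cells. The ranges overlapped (log2 fold change -0.13 ± 0.56, adjusted p = 1). PFKP (ENSDARG00000028000) was the phosphofructokinase ID with the most counts, at 65.3, 125, 151 and 9.26 CPM after PBS and 117, 412 and 186 CPM after E. coli in that gate (1.44 ± 0.78, adjusted p = 0.353). Among ccl34b.1- libraries it was at 14.1, 85.0, 93.0 and 97.0 CPM after PBS and 30.8, 443 and 319.6 CPM after E. coli (1.87 ± 0.78, adjusted p = 0.235). E. coli library 1 lay inside the PBS range of that gate and the other libraries above it. Of the other 5 phosphofructokinase IDs, PFKM (ENSDARG00000014179) and PFKL (ENSDARG00000099755) held 0 counts in all 28 libraries, and PFKM (ENSDARG00000060797), PFKL (ENSDARG00000060504) and a further PFKP (ENSDARG00000012801) each stayed below 27 CPM in every library.

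Fructose 2,6-bisphosphate, the activator of phosphofructokinase, is made and removed by the PFKFB enzymes, and PFKFB3 is the form known for strong kinase activity. In ccl34b.1+ cells PFKFB3 was at 316, 427, 262 and 538 CPM after PBS and 428, 568 and 291 CPM after E. coli (log2 fold change 0.15 ± 0.47, adjusted p = 1). In ccl34b.1- cells it was at 189, 215, 439 and 337 CPM after PBS and 119, 238 and 97.8 CPM after E. coli (-0.96 ± 0.48, adjusted p = 0.262). The libraries overlapped in both gates. PFKFB4 and pfkfb4a had log2 fold changes of 0.28 ± 1.04 and 1.37 ± 0.93 in ccl34b.1+ cells, with overlapping libraries and adjusted p = 1 and adjusted p = 0.514.

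Aldolase splits fructose 1,6-bisphosphate, and ALDOC, the aldolase known from brain, stood apart from PBS in both gates. ALDOC (ENSDARG00000019702) was at 38.1, 204, 65.8 and 287 CPM in ccl34b.1+ PBS libraries and 396, 441 and 717 CPM in E. coli libraries. For ccl34b.1- cells it was at 113, 84.7, 115 and 90.2 CPM after PBS and 196, 446 and 643 CPM after E. coli. No libraries overlapped in either gate, yet the differences of 1.80 ± 0.56 and 2.09 ± 0.56 missed the threshold (adjusted p = 0.115 and adjusted p = 0.0918). DESeq2 called both, with adjusted p = 0.0301 and adjusted p = 0.0265. In edgeR fits with a library left out the adjusted p ranged from 0.0472 to 0.372 and from 0.0498 to 0.251, and 1 of 7 fits passed in each gate. ALDOC in controls was at 171.5 and 106 CPM in ccl34b.1+ cells and 226 and 167 CPM in ccl34b.1- cells. The ccl34b.1- controls were thus above all PBS libraries of that gate and overlapped its E. coli libraries. Against controls the log2 fold change of E. coli was 1.90 (adjusted p = 0.273) in ccl34b.1+ and 1.125 (adjusted p = 0.463) in ccl34b.1- cells. ALDOA (ENSDARG00000011665), the muscle and general form, was at 581, 624, 319.8 and 386 CPM after PBS and 652, 629.9 and 754 CPM after E. coli in ccl34b.1+ cells (0.51 ± 0.41, adjusted p = 0.639). Its E. coli libraries were above the PBS libraries by a narrow margin. In the ccl34b.1- gate it was at 234, 253, 292 and 201 CPM after PBS and 308, 643 and 314 CPM after E. coli (0.78 ± 0.41, adjusted p = 0.277). TPI1 (ENSDARG00000040988), which interconverts the triose phosphates, overlapped in both gates, at 76.5 to 148 CPM after PBS and 86.3 to 256 CPM after E. coli in ccl34b.1+ cells (adjusted p = 0.86), and at 96.5 to 163 and 150.3 to 198 CPM in ccl34b.1- cells (adjusted p = 0.659).

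The later steps of the pathway are known as its pay-off phase, since they return ATP, and none of their members up to pyruvate passed in either gate. GAPDHS, whose mammalian namesake is the sperm form of glyceraldehyde-3-phosphate dehydrogenase, was at 2505, 3211, 1494 and 3222 CPM after PBS and 3455, 4818 and 4988 CPM after E. coli in ccl34b.1+ cells (log2 fold change 0.76 ± 0.31, adjusted p = 0.277). Among ccl34b.1- libraries it was at 1694, 3016, 1893 and 2567 CPM after PBS and 1375, 3059 and 2795 CPM after E. coli, with library 1 below, library 2 above and library 3 within the PBS range (0.07 ± 0.31, adjusted p = 0.968). The ID named GAPDH held only 108 counts in 7 libraries and was not tested. Phosphoglycerate kinase was represented by no member, but the table holds PGK2, a name outside the matching rule, looked up after the values of the other steps were seen. PGK2 had 334, 329, 248 and 153 CPM after PBS and 606, 849.7 and 673 CPM after E. coli in ccl34b.1+ cells (1.42 ± 0.52, adjusted p = 0.228). In ccl34b.1- cells its libraries overlapped, at means of 220 CPM after PBS and 270 CPM after E. coli (0.30 ± 0.52, adjusted p = 0.85).

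Phosphoglycerate mutase, represented mainly by pgam1a, shifts the phosphate within phosphoglycerate. In ccl34b.1+ cells pgam1a was at 115, 142, 157 and 198 CPM after PBS and 281, 250 and 275 CPM after E. coli (log2 fold change 0.81 ± 0.56, adjusted p = 0.518). In ccl34b.1- cells it was at 136, 133, 26.8 and 122 CPM after PBS and 379, 389 and 188 CPM after E. coli (1.61 ± 0.56, adjusted p = 0.219). The groups did not overlap in either gate. ENO1 (ENSDARG00000022456), enolase of most tissues, was at 254, 286, 121 and 177 CPM after PBS and 602, 572 and 481 CPM after E. coli in ccl34b.1+ cells (1.40 ± 0.48, adjusted p = 0.187). In ccl34b.1- cells E. coli library 2, at 851 CPM, was above the PBS range of 161 to 261 CPM, and libraries 1 and 3, at 241 and 197 CPM, were within it. ENO3, the enolase known from muscle, went the other way in ccl34b.1+ cells, at 112, 101, 228 and 189 CPM after PBS and 85.1, 67.9 and 85.9 CPM after E. coli, with no overlap and no call (-0.98 ± 0.69, adjusted p = 0.536).

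Pyruvate kinase closes the pathway, and 1 of its 2 IDs, PKM (ENSDARG00000099860), held 0 counts everywhere. The other, PKM (ENSDARG00000099730), was at 499.5, 384, 367 and 279 CPM after PBS and 868, 997 and 1052 CPM after E. coli in ccl34b.1+ cells, a clear gap between the groups. Its log2 fold change was 1.35 ± 0.40 (adjusted p = 0.0997), and it passed with DESeq2 (adjusted p = 0.0162), with limma voom weighted by library quality (adjusted p = 0.00217) and when only the compared groups were fitted (adjusted p = 0.0314), but in none of 7 fits with a library left out (0.112 to 0.29). Against controls of the ccl34b.1+ gate the log2 fold change of E. coli was 1.27 and did not pass (adjusted p = 0.309). For ccl34b.1- cells this PKM ID was at 221, 347, 262 and 231 CPM after PBS and 304, 934 and 448 CPM after E. coli. Library 1 overlapped there (1.08 ± 0.40, adjusted p = 0.23). With the voom fit 8 of the 26 members passed in the ccl34b.1+ gate, where that fit called 5.31% of all genes: SLC2A6, HK2, PKM, ALDOC, GAPDHS, ENO1 and LDHA higher and LDHB lower.

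**Figure D3:**
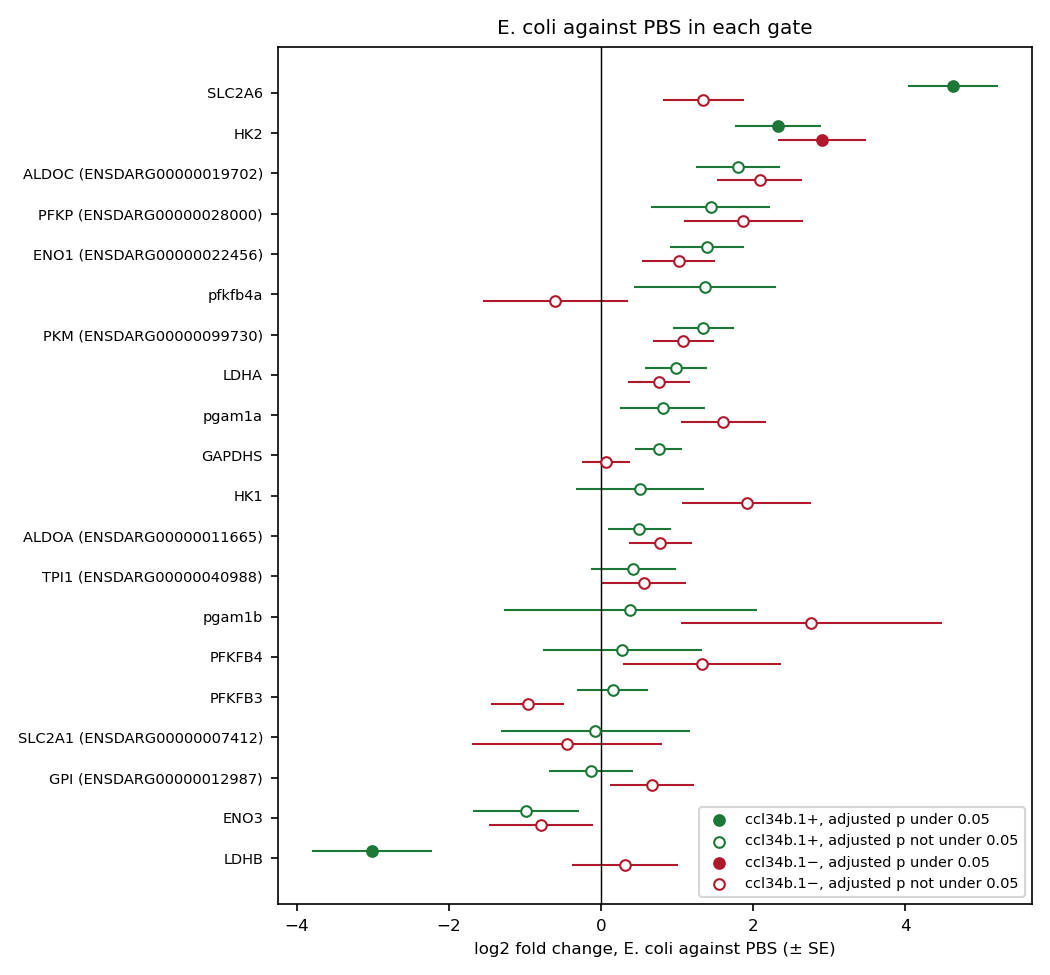
Fitted log2 fold change of E. coli against PBS (x axis, ± SE) for the 20 glycolysis members with a mean of at least 10 CPM over the injection experiment (y axis), in the ccl34b.1+ (green) and ccl34b.1- (red) gate, with filled points for adjusted p under 0.05. SLC2A6, at 4.63, and HK2, at 2.33, are filled on the right and LDHB, at -3.01, on the left for ccl34b.1+ cells, and HK2 alone, at 2.91, is filled for ccl34b.1- cells.

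Lactate dehydrogenase is a tetramer of A and B subunits, of which LDHA favours lactate formation. In ccl34b.1+ cells LDHB was at 175, 225, 91.8 and 271 CPM after PBS and 28.9, 28 and 13.8 CPM after E. coli, with controls at 132 and 139 CPM. No libraries overlapped, and the log2 fold change was -3.01 ± 0.79 (adjusted p = 0.0393). The call was close to the threshold: it held without PBS library 3 (adjusted p = 0.0396) and was lost when any of the other 6 libraries was left out (0.0768 to 0.221). It was also lost with no filter on low counts (0.0881), against the controls (0.189) and with the replicate number as a block. Equal numbers across treatments are different fish, so that block marks no pair. Thus 6 of 15 alternatives passed, while the log2 fold change stayed between -3.24 and -2.52 over the 15 alternatives. LDHA was at 365, 509.9, 261 and 495 CPM after PBS and 787, 762 and 878 CPM after E. coli, also without overlap (0.99 ± 0.41, adjusted p = 0.278). The ratio of LDHA to LDHB, of which only the change between libraries can be read since CPM is not per length, was 2.09, 2.27, 2.84 and 1.83 after PBS and 27.2, 27.2 and 63.5 after E. coli in ccl34b.1+ cells.

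In ccl34b.1- cells LDHB was at 35.8, 125, 127 and 97.7 CPM after PBS and 22.5, 234 and 104 CPM after E. coli, with overlap (log2 fold change 0.32 ± 0.70, adjusted p = 0.899). LDHA was at 478, 326, 339 and 485 CPM after PBS and 742, 879 and 449 CPM after E. coli (0.76 ± 0.41, adjusted p = 0.288). The ratio was 33.0 in E. coli library 1, in the range of the ccl34b.1+ E. coli libraries, but 3.76 and 4.33 in libraries 2 and 3, within the PBS range of 2.61 to 13.4. The difference of the LDHB effect between the gates was -3.33 ± 1.02 and did not pass (adjusted p = 0.196). SLC16A3, the lactate exporter of glycolytic cells, was at or near 0 in most libraries: SLC16A3 (ENSDARG00000045051) exceeded 4 CPM only in ccl34b.1+ PBS library 4, at 19.6 CPM, and ccl34b.1+ E. coli library 1, at 22.9 CPM. Its other ID, SLC16A3 (ENSDARG00000028583), had counts in ccl34b.1- libraries of untreated and control fish only, at 14.3, 12.1 and 52.9 CPM in untreated libraries 2, 3 and 4.

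**Figure D4:**
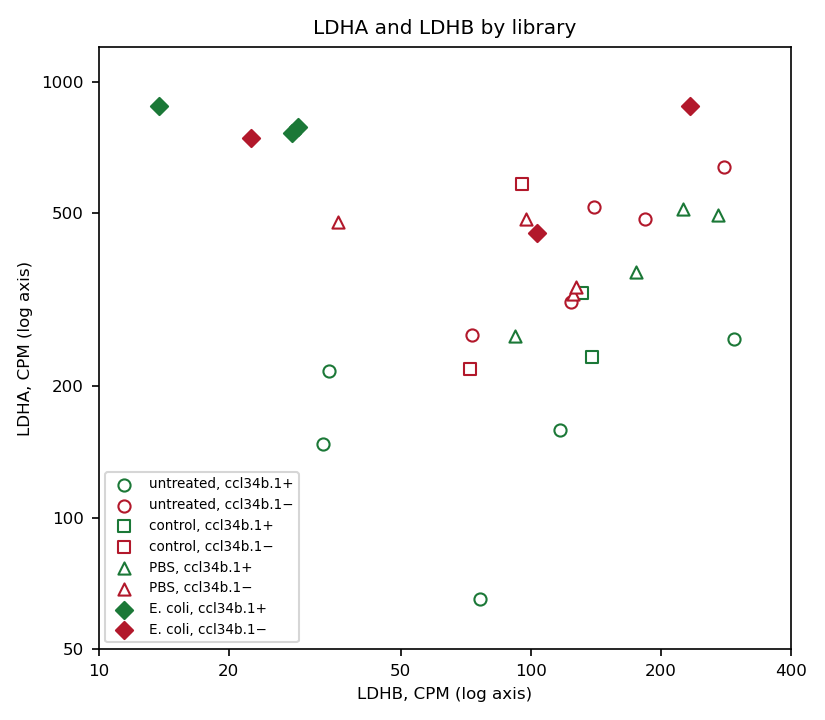
LDHA (y axis) against LDHB (x axis) in CPM on log axes for all 28 libraries, green for ccl34b.1+ and red for ccl34b.1-, with circles for untreated, squares for control, triangles for PBS and filled diamonds for E. coli. The 3 ccl34b.1+ E. coli libraries and ccl34b.1- E. coli library 1 sit at the upper left, with LDHB at 13.8 to 28.9 CPM and LDHA at 742 to 878 CPM.

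In ccl34b.1- cells as a whole, HK2 was the sole call among the 26 members, against a background of 0.403% of 12421 genes (0.233% higher and 0.169% lower). E. coli libraries lay entirely above PBS libraries for 5 members, HK2, ALDOC, pgam1a, HK1 and ALDOA, and entirely below for none, beside 3.34% and 4.42% of all genes. The median log2 fold change of the members was 0.62 (0.76 without the 3 members at 0 in both groups) and that of all genes -0.08. With DESeq2's size factors these medians were 0.40 and -0.29, so the scaling moved all genes by more than 0.1 and the members alike. For this gate the calls over all genes were 29 higher and 21 lower, and 24 higher and 36 lower with those size factors.

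Whether E. coli acted differently in the 2 gates was tested as an interaction. None of the 26 members passed, where 0.274% of all genes did (0.129% higher and 0.145% lower; 16 and 18 genes, or 18 and 11 with DESeq2's size factors), and 3 had an unadjusted p under 0.05, beside 14.0% of all genes. DESeq2 called 2 members, SLC2A6 and LDHB, and 4.79% of all genes, and voom called 0 members and 0.242%. SLC2A6 came closest, at a difference of 3.28 ± 0.78 on the log2 scale (adjusted p = 0.0633), with an adjusted p of 0.00172 to 0.489 over 21 alternatives, 7 of which passed. Among them were leaving out ccl34b.1- PBS library 4 (0.0296) or ccl34b.1- E. coli library 2 (0.0192). The lowest, 0.00172, came with the library number within each treatment as a block, a fit that called 105 of 12421 genes. Each fish gave both gates, but the labels do not say that equal numbers mark a fish, so that fit is an alternative only.

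Beside these values in the ccl34b.1+ gate, the macrophage marker list summed to 13300 to 17700 CPM after E. coli and 2670 to 3160 after PBS. The radial glia list summed to 328 to 449 against 1410 to 2220, but only 4 of its 9 IDs held a count. GFAP, her4.1, S100B and SLC1A2 were at 0 in both groups. Of 9 microglia markers, 3 passed as lower (apoeb, apoc1 and lgals3bp.1), while 6 log2 fold changes were below 0 and 3 above. Among macrophage markers, cd68 and 2 IDs of MFAP4 passed as higher, with 9 log2 fold changes above 0 and 1 below. The listed mpeg1.1 was not matched. MPEG1 (ENSDARG00000055290), outside that list, went the other way in the ccl34b.1+ gate, at means of 122 CPM after E. coli and 757 after PBS. Neutrophil list sums overlapped there, at 145 to 369 and 137 to 272 CPM, with npsn and lyz at 0 in all of them. In ccl34b.1- cells the neutrophil list was high in E. coli libraries 2 and 3. Of 26 tested members, 12, among them SLC2A6, HK2, PFKP, ALDOC, PKM and LDHB, were higher in both of these than in library 1. HK1 went the other way, at 87.0, 63.0 and 49.3 CPM in libraries 1, 2 and 3. The share of all genes in this order was not computed, so the count is not a result about the members. HK2 in library 1 was at 172 CPM, below libraries 2 and 3 and above the PBS range of 6.14 to 76.0 CPM. The part of these markers in the results was not tested.

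PBS was compared with control fish to see what the injection itself moved. No member passed in either gate with edgeR's quasi-likelihood test, and no gene of 12421 did (0%), with 628 genes (5.06%) at an unadjusted p under 0.05 in ccl34b.1+ and 642 (5.17%) in ccl34b.1- cells. Among the members, 2 and 4 had an unadjusted p under 0.05 in the respective gates. PBS libraries lay entirely above controls for 1 member and below for 2 in ccl34b.1+ cells, beside 4.46% and 10.1% of all genes, and for 3 and 2 in ccl34b.1- cells, beside 3.34% and 6.56%. DESeq2 called 0 and 1 of them, beside 0.660% and 1.02% of all genes, and voom 0 and 0, beside 1.67% and 0.330%. The DESeq2 call, ALDOA (ENSDARG00000034470), rested on 16 counts in ccl34b.1- control library 1 and 0 in the other 5 libraries compared. SLC16A3 (ENSDARG00000028583), 1 of the 2 members lower without overlap in ccl34b.1- cells, had only 7 and 9 counts in controls and 0 after PBS. PFKFB3 was at 1015 and 637 CPM in ccl34b.1+ controls, above the 262 to 538 CPM after PBS (log2 fold change -1.099 ± 0.52, adjusted p = 0.965). ALDOA (ENSDARG00000011665) was at 244 and 202 CPM in those controls, below the 319.8 to 624 CPM after PBS (1.097 ± 0.49, adjusted p = 0.965). In ccl34b.1- cells SLC2A6 had the smallest p of the members, at 61.5 against 13.3 CPM (2.21 ± 0.69, adjusted p = 0.943). The member medians were 0.01 and 0.11, beside 0 and 0.18 over all genes.

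The gates themselves were compared in every treatment, to describe how the pathway stood in each kind of cell. HK2 was higher in ccl34b.1+ cells in control fish, at 104 and 118 against 14.7 and 8.21 CPM (log2 fold change 3.27 ± 0.81, adjusted p = 0.0396), though not with any of the 4 libraries left out (adjusted p = 0.103 to 0.633) and in only 2 of 11 alternatives (0.00903 to 0.633), and in PBS fish (2.51 ± 0.55, adjusted p = 0.0054), where it passed with each of 8 libraries left out. It was the sole member called in either comparison, beside 0.869% of all genes in controls (0.507% higher and 0.362% lower) and 2.69% after PBS (1.21% higher and 1.48% lower). After E. coli the HK2 libraries of the gates did not overlap, and the difference of 1.94 ± 0.62 missed the threshold (adjusted p = 0.102). SLC2A6 was the sole call there, 17.9-fold higher in ccl34b.1+ cells (4.17 ± 0.65, adjusted p = 0.000119; 6 of 6 fits with a library left out), beside 2.31% of all genes (0.886% higher and 1.43% lower). In fish without E. coli its gate difference was 2.78 ± 0.76 in controls (adjusted p = 0.0839) and 0.88 ± 0.50 after PBS (adjusted p = 0.347).

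Higher levels in ccl34b.1+ than ccl34b.1- libraries without overlap were seen for 16 members in controls, 3 after PBS and 6 after E. coli, and lower levels for 1, 0 and 0, where the shares of all genes were 22.5%, 5.10% and 8.12% higher and 17.8%, 4.81% and 7.06% lower. PFKFB3 and GAPDHS were among the 16 and among the 6. The 1 lower member in controls was SLC16A3 (ENSDARG00000028583), at 3.4 and 4.1 CPM in ccl34b.1- and 0 in ccl34b.1+ libraries. It passed the filter on low counts only through the group where it was high. The members' medians, 0.76, 0.54 and 0.50 on the log2 scale, were above 0 in all 3 treatments, beside 0, -0.11 and -0.10 over all genes. With DESeq2's size factors the medians after PBS were 0.41 for the members and -0.23 for all genes. These comparisons and those of E. coli against PBS share libraries, so they are not independent of each other.

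In untreated fish, none of 21 members passed between the gates, beside 3.71% of 8658 genes (2.10% higher and 1.61% lower), and 4 had an unadjusted p under 0.05, beside 10.6% of all genes. LDHA stood out by its values: it was at 159, 258, 65.2, 217 and 148 CPM in ccl34b.1+ and 262, 515, 483, 637 and 312 CPM in ccl34b.1- libraries. The groups did not overlap, as for no other member, where 5.16% of all genes were entirely higher and 3.26% entirely lower, and the log2 fold change of -1.39 ± 0.40 missed the threshold (adjusted p = 0.0844) also in edgeR fits with a library left out (0.0599 to 0.189). It passed with DESeq2 (adjusted p = 0.0199) and voom (adjusted p = 0.0335), the sole member that either of them called, beside 6.75% and 6.95% of all genes. PFKFB3 was at 370.2 to 1016 against 123 to 530.1 CPM (1.13 ± 0.42, adjusted p = 0.247) and GAPDHS at 971 to 1655 against 511 to 1150 CPM (0.73 ± 0.28, adjusted p = 0.258), both overlapping. HK2 was at 161, 189, 127, 22.3 and 51.4 CPM in ccl34b.1+ and 74.0, 34.7, 1.44, 11.9 and 22.7 CPM in ccl34b.1- libraries (1.93 ± 0.97, adjusted p = 0.543). The members' median was 0.06, and -0.04 with DESeq2's size factors, so it had no stable sign. In untreated fish B cell markers summed to 61.5 to 1930 CPM in ccl34b.1- and 0 to 3.11 CPM in ccl34b.1+ libraries. T cell markers summed to 0 to 235 CPM in ccl34b.1- libraries and 0 in ccl34b.1+ libraries. Dendritic cell markers summed to 3080 to 14000 against 426 to 896 CPM. The part of these markers in the LDHA values and the other results was not tested.

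Pathways that feed from or oppose glycolysis were described by lists. After E. coli in ccl34b.1+ cells, 1 of 30 tested genes of pyruvate entry and the tricarboxylic acid cycle was higher and 0 lower, 1 of 16 regulators of glycolysis was lower and 0 higher, and 0 of 4 gluconeogenesis, 11 glycogen, 7 pentose phosphate, 21 hypoxia-inducible factor and 14 further glycolysis isoform and carrier genes passed in either direction. In ccl34b.1- cells none of these genes passed. Beside these counts, 1.51% of all genes passed in the ccl34b.1+ gate and 0.403% in the ccl34b.1- gate. With lists this small, such counts are not a result about the pathways. SUCLG1, a subunit of the succinyl-CoA synthetase of the tricarboxylic acid cycle, was at 53.7, 91.5, 81.5 and 107 CPM after PBS and 625, 546 and 543 CPM after E. coli in ccl34b.1+ cells (log2 fold change 2.77 ± 0.73, adjusted p = 0.0425). In the ccl34b.1- gate it was at 99.2 to 121 CPM after PBS and at 2.84, 478 and 396 CPM after E. coli, so that library 1 was again unlike the others. MYC (ENSDARG00000007241), a transcription factor, was at 496, 262, 213 and 432 CPM in ccl34b.1+ cells after PBS and at 0, 0.738 and 1.91 CPM after E. coli (-8.57 ± 1.40, adjusted p = 0.000854). The other ID of that name, MYC (ENSDARG00000045695), was at 19.4, 40.7, 0.295 and 60.7 CPM after PBS and 46.5, 0 and 15.7 CPM after E. coli, with overlap (-0.54 ± 2.10, adjusted p = 1).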

How the data were processed

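Per the labels' protocols, cells were released with trypsin, sorted into lysis buffer and amplified by Smart-seq2, which primes on poly(A), with 24 PCR cycles and 12 more after tagmentation. The libraries carry no molecular identifiers, so amplified copies are counted and floors cover counting error only. The authors deposited whole-number counts of reads per gene for 32520 Ensembl IDs in 28 libraries. Per the submitters' processing notes they used STAR, featureCounts and DESeq2 with GRCz11 (danRer11); tool versions, strandedness and the handling of multi-mapped reads are not given in the sources used here, so counts of near-identical copies are uncertain. A supplied table named 29201 IDs.

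Tests used edgeR 4.0.16 in R 4.3.3 (TMM, filterByExpr, robust quasi-likelihood fits, two-sided, Benjamini-Hochberg over all genes tested, threshold 0.05). Untreated libraries (10) were fitted alone, and the other 18 together as 6 groups with a common estimate of the spread. Every adjusted p is from this test unless DESeq2 1.42.0 or voom (limma 3.58.1) is named. Log2 fold changes carry their SE. Libraries of a group came from separate fish. Where a group held 0 counts of a member, the median in brackets used a floor of 3 counts over the group.

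Members, lists and tests were chosen with earlier results of these data known. Values are given for members called in an E. coli comparison and for the ID of each step with the highest mean CPM, and in the other lists for up to 3 genes that passed; ALDOC, HK1, ENO3, SLC2A1 and PGK2 were added after their values were seen. Alternatives were other size factors, filters, tools, comparators and sets of libraries, the replicate number as a block, and each library left out. On simulated data the fits recovered the direction of most changes, but few of the changed genes reached the threshold, since libraries of a group varied widely (common coefficient of variation 1.53 in the injection experiment and 1.63 in untreated fish). No genome or sequence table was used here, so no coordinates or sequences are given.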

Additional observations from a re-analysis of the deposited data

Results flagged for a closer look

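Within groups of 4 or 5 libraries, 5 of 53 combinations of a described member and a group held a library far from the others, judged by its gap to the nearest library over the range of the group. The cut-offs give about 1 in 20 for normally distributed values. CPM with zeros need not follow that, and the share expected by chance here was not computed. In ccl34b.1- PBS libraries, PFKP (ENSDARG00000028000) was at 14.1 CPM in library 1 and 85.0 to 97.0 in the others, and pgam1a was at 26.8 CPM in library 3 and 122 to 136 in the others. In ccl34b.1+ PBS libraries, TPI1 (ENSDARG00000040988) was at 76.5 CPM in library 3 and 136 to 148 in the others, and SLC16A3 (ENSDARG00000045051) was at 19.6 CPM in library 4 and 0 to 3.13 in the others. ENO1 (ENSDARG00000022456) was at 358 CPM in untreated ccl34b.1+ library 2 and 256 to 280.1 in the others.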

How the results depend on the processing

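Library replicate numbers were not treated as pairs in the main fits, since the labels do not say that they mark a fish. Deviations of same-numbered ccl34b.1+ and ccl34b.1- libraries correlated weakly, at 0.009 to 0.043. Yet all untreated and E. coli pairs, and PBS pairs 1 to 3, correlated best within the number, while PBS pair 4 did not. Between gates, the replicate block was the number within each treatment. With it, 198 genes and 2 members were called in control fish and 187 genes in untreated fish. In the interaction 105 genes and 1 member (SLC2A6, adjusted p = 0.00172) were called. Within gates, the block was the number alone, which different fish share across treatments, so it marks no pair. There PBS against control called 1 gene in ccl34b.1+ cells, and the LDHB call for E. coli in those cells was lost (adjusted p = 0.0932). In the order E. coli against PBS in ccl34b.1+ then ccl34b.1- cells, interaction, and gates in control, PBS, E. coli and untreated fish, DESeq2 called 974, 1177, 595, 454, 1094, 1589 and 584 genes, and 5, 2, 2, 1, 3, 6 and 1 members. For PBS against control it called 82 genes in ccl34b.1+ cells and 127 genes and 1 member in ccl34b.1- cells. The voom fit called 659 genes and 8 members for E. coli in ccl34b.1+ cells and 75 genes and 0 members in ccl34b.1- cells. For PBS against control it called 207 and 41 genes. Between gates it called 662, 714, 464 and 602 genes in control, PBS, E. coli and untreated fish. These included 4 members in E. coli, 1 in untreated and 1 in control fish. The last was SLC16A3 (ENSDARG00000028583), lower in ccl34b.1+ cells, while HK2 did not pass there (adjusted p = 0.158). That ID had 7 and 9 counts in the ccl34b.1- control libraries and 0 in all others of the injection experiment. It thus passed the filter only through the group where it was high. Without a filter, 284 and 178 genes were called for E. coli, 2 members in ccl34b.1+ cells, 146 genes and 1 member for the interaction, 21 and 13 genes for PBS against control, and 175 and 472 genes between gates in control and E. coli fish. Fits of the compared groups only called 320 genes for E. coli in ccl34b.1+ cells and 9 genes and 0 members in ccl34b.1- cells. They called 31 of 10155 genes and 1 member for the interaction. For PBS against control in ccl34b.1+ cells they called 3 genes, and between gates in E. coli fish 112 genes. HK2 was then not called in control or PBS fish (0 members, beside 144 and 437 genes). At a mean of at least 10 CPM, 1 gene was called for PBS against control in ccl34b.1+ cells, and 0 members and 112 genes between control gates. DESeq2's size factors gave 1 member and 29 genes for the interaction and 0 members and 101 genes between control gates. E. coli against control gave 2 members and 34 genes in ccl34b.1- cells. In the injection experiment, the fits with DESeq2's size factors and of E. coli against control tested 12421 genes. Without a filter 19688 genes were tested, and 6581 at a mean of at least 10 CPM. Fits of the compared groups only tested 6537 to 10155 genes, depending on the groups. With a library left out, genes called ranged from 101 to 162 and 26 to 90 for E. coli, 14 to 55 for the interaction, 0 to 0 and 0 to 1 for PBS against control, and 38 to 61, 227 to 308, 162 to 351 and 231 to 315 between gates in control, PBS, E. coli and untreated fish; members called ranged from 1 to 2, 0 to 2, 0 to 1, 0 to 0, 0 to 0, 0 to 1, 1 to 2, 1 to 2 and 0 to 0 in that order. The cause of these moves was not tested. Among members that passed in at least 1 setting, none turned to the other direction; ALDOA (ENSDARG00000034470), called by DESeq2 alone in these comparisons, had log2 fold changes from -8.089 to 0 for PBS against control in ccl34b.1- cells and from 0 to 8.204 between PBS gates with a library left out, and was at 0 without the single library that held its counts. Over all genes tested in the injection experiment, libraries of a group varied by a common coefficient of variation of 1.53. Members that missed the threshold are thus not shown to be at equal levels.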

Other observations

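Of the pentose phosphate genes, which draw glucose 6-phosphate away from glycolysis, PGD, the phosphogluconate dehydrogenase, differed between the gates and was chosen after its values were seen. In control fish its mean was 545 CPM in ccl34b.1+ and 22.0 CPM in ccl34b.1- cells, a log2 difference of 4.63 ± 0.75 (adjusted p = 0.000338). In PBS fish the means were 447 and 113 CPM (1.99 ± 0.47, adjusted p = 0.0123). The gates did not pass for it in untreated fish, at 260.5 and 89.3 CPM (1.54 ± 0.69, adjusted p = 0.426), or in E. coli fish, at 325.8 and 139 CPM (1.23 ± 0.53, adjusted p = 0.205). Neither comparison of E. coli with PBS called it. TXNIP (ENSDARG00000036107), known in mammals as a restraint on glucose uptake and likewise chosen after its values were seen, was at 1114 CPM in ccl34b.1+ and 133.5 CPM in ccl34b.1- cells of untreated fish (3.06 ± 0.65, adjusted p = 0.0156). It did not pass between gates in control (1.44 ± 1.14, adjusted p = 0.872), PBS (1.56 ± 0.81, adjusted p = 0.289) or E. coli fish (1.92 ± 0.94, adjusted p = 0.239).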
